A study of Mus musculus with 16 samples.

Results

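The genes described here are 10 enzymes that modify or crosslink collagen: the lysyl oxidases Lox, Loxl1, Loxl2 and Loxl3, the lysyl hydroxylases Plod1, Plod2 and Plod3, and the catalytic subunits of prolyl 4-hydroxylase P4ha1, P4ha2 and P4ha3. They were taken by the gene name that the array files give each probe, which found 14 of the 41174 non-control probes and 10 of 27670 named genes or transcripts. RNA came from a mid-ventricular ring of the left ventricle of 16 mice, 1 array per mouse, in 4 groups of 4 with 2 males and 2 females each. The groups were alpha-MHC-NOS3 transgenic mice 10 weeks after transverse aortic constriction (NOS3-TG TAC), unoperated transgenic mice (NOS3-TG baseline), wild-type littermates 10 weeks after constriction (WT TAC) and unoperated wild-type littermates (WT baseline). The transgene expresses nitric oxide synthase 3, the endothelial NO synthase, in cardiomyocytes from the alpha-myosin heavy chain promoter, and all mice were on a C57BL/6 N background after 7 generations of backcrossing. Aortic constriction narrows the aorta and loads the left ventricle with pressure. The baseline mice are labelled as intact, so constriction and surgery cannot be told apart.

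Fibrillar collagen is made strong in steps that these enzymes carry out. Prolyl 4-hydroxylases hydroxylate proline in the endoplasmic reticulum, which lets the triple helix hold at body temperature, and lysyl hydroxylases hydroxylate lysine, which sets where sugars and crosslinks can form. Outside the cell, copper-dependent lysyl oxidases oxidise lysine and hydroxylysine, and the resulting aldehydes crosslink collagen and elastin fibres. In the heart, fibroblasts are the main source of fibrillar collagen, and crosslinked collagen is known to stiffen the ventricle.

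Levels are log2 processed signal minus the 75th percentile of the array, so a level belongs to its own probe and is not set against another probe's. Each array read between 44.2% and 68.0% of probes well above background, and the signal at the 75th percentile was between 1053 and 1491. Of the 14 probes, 12 passed the filter (signal well above background on 4 or more of 16 arrays), and 9 of the 10 genes were tested. P4ha3, an alternative catalytic subunit, and a second P4ha2 probe were well above background on none of the arrays, which bounds their signal and gives no level. Loxl4, the remaining lysyl oxidase, was on none of the arrays above background either. Nos3 checked the labels: it was 5.69 ± 0.12 (SE) log2 units higher in NOS3-TG TAC than in WT TAC hearts, and 6.58 ± 0.12 higher in NOS3-TG baseline than in WT baseline hearts, with no overlap. With constriction Nos3 itself differed by -0.48 in NOS3-TG hearts (adjusted p = 0.0207) and by 0.41 in WT hearts (adjusted p = 0.0194, limma). The part of these Nos3 changes in the enzyme estimates was not tested. Cardiomyocyte and fibroblast markers were detected in every group, while summed atrial markers ran from 0.793 to 214 times the 75th percentile across single arrays and varied that widely within each group. In bulk tissue, fewer cells of a type and less RNA per cell cannot be told apart. The constricted mice were on 2 slides and the baseline mice on 2 others, so constriction and slide cannot be told apart. Genotype and sex were each bound to position on the slide, and cannot be told apart from it.

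Of the 9 tested genes, 4 rose and 0 fell with constriction in NOS3-TG hearts, and 7 rose and 0 fell in WT hearts. The lysyl oxidases had the largest estimates in both genotypes: 3 of 4 rose in NOS3-TG TAC hearts, and all 4 rose in WT TAC hearts. Lox and Loxl3, called in both genotypes, were well above background on every constricted array. At baseline Lox was so on 1 of 4 NOS3-TG and 0 of 4 WT arrays, and Loxl3 on 1 of 4 and 2 of 4. The baseline arrays alone would have kept neither, so both were tested because of their signal in constricted hearts. Their calls are thus not independent of the filter. Among all 15667 genes tested, 6.47% were called higher in NOS3-TG TAC than in NOS3-TG baseline hearts (5.35% lower, 11.8% in either direction), and 10.9% in WT TAC than in WT baseline hearts (17.6% lower, 28.4% in either direction), by limma with Benjamini-Hochberg adjusted p under 0.05. Over the 9 genes the median log2 change was 0.74 in NOS3-TG hearts, against -0.00 for all genes, and 0.96 in WT hearts, against -0.06 for all genes. The NOS3-TG count was 4 of 9 genes, and 0 without the 3 arrays whose share of probes above background lay farthest from the others (NOS3-TG TAC replicates 3 and 4 and NOS3-TG baseline replicate 2). Without them 2 NOS3-TG TAC arrays remain, and the 4 estimates were not smaller: 2.64 for Lox, 1.08 for Loxl1, 1.65 for Loxl3 and 0.87 for P4ha1 (adjusted p between 0.062 and 0.119, limma).

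Lox, which encodes the founding lysyl oxidase, had levels of -1.35, -3.62, -2.21 and -3.30 in NOS3-TG TAC hearts, against -4.41, -5.16, -4.72 and -5.60 in NOS3-TG baseline hearts. Its levels were -0.29, -3.16, -1.60 and -0.71 in WT TAC hearts, against -4.66, -6.62, -4.83 and -5.40 in WT baseline hearts. Every constricted heart stood above every baseline heart of its genotype, and the WT baseline hearts were all not well above background, as were 3 of 4 NOS3-TG baseline hearts. In NOS3-TG hearts the fitted difference was 2.35 ± 0.46 log2 units (SE; adjusted p = 0.00741). In WT hearts the fitted difference of 3.94 passed the test against 0 (adjusted p = 0.000204, limma). For a bound, WT baseline levels were raised to at least the lowest level read well above background on the array. Lox was then at least 7.55-fold higher in WT TAC than in WT baseline hearts. With normexp background correction the fitted difference was 1.12 in NOS3-TG hearts (adjusted p = 0.0663) and 1.78, in place of 3.94, in WT hearts. That WT value is below the bound, so the bound holds for the processed signal alone.

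Loxl1, a lysyl oxidase known for its work on elastin, had levels of 3.34, 2.24, 2.92 and 2.41 in NOS3-TG TAC hearts, against 2.25, 1.66, 1.86 and 1.33 in NOS3-TG baseline hearts. In WT TAC hearts they were 3.26, 2.21, 3.13 and 3.28, against 1.87, 1.38, 1.76 and 1.34 in WT baseline hearts. The WT groups did not overlap, while the highest NOS3-TG baseline heart reached the lowest NOS3-TG TAC heart. Loxl1 was 0.95 ± 0.19 log2 units higher with constriction in NOS3-TG hearts (adjusted p = 0.00799) and 1.38 ± 0.19 higher in WT hearts (adjusted p = 0.00046, limma).

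Loxl2, an extracellular crosslinking enzyme of collagen IV and fibrillar collagen, had levels of 2.09, 1.22, 1.67 and 1.30 in NOS3-TG TAC hearts, against 1.20, 0.55, 0.68 and 0.31 in NOS3-TG baseline hearts. WT TAC hearts read 2.34, 1.10, 1.93 and 2.93, against 0.75, 0.33, 0.81 and 0.14 in WT baseline hearts. The constricted hearts stood above the baseline hearts in both genotypes. The difference of 0.89 ± 0.29 log2 units in NOS3-TG hearts missed the threshold (adjusted p = 0.0668), and that of 1.57 ± 0.29 in WT hearts passed it (adjusted p = 0.00233, limma). In fits that left out 1 array the NOS3-TG call passed in 2 of 16. Those left out WT TAC replicate 2 or WT TAC replicate 4 (lowest adjusted p = 0.00332, without replicate 4). Neither array is in this comparison, so the estimate stayed at 0.89 while the spread shared by the groups changed. The call passed in 3 of 12 other settings, where the highest adjusted p was 0.211 (limma). It passed with the 2 compared groups fitted alone (adjusted p = 0.0208), with array weights (adjusted p = 0.0152) and with the filter on all 16 arrays (adjusted p = 0.0459). The second Loxl2 probe gave 0.95 ± 0.34 in NOS3-TG and 1.39 ± 0.34 in WT hearts, with the same calls.

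Loxl3, a lysyl oxidase of the same scavenger-receptor type as Loxl2, had levels of -1.52, -3.57, -2.32 and -2.97 in NOS3-TG TAC hearts, against -3.85, -3.61, -4.22 and -4.15 in NOS3-TG baseline hearts. In WT TAC hearts they were -1.13, -3.27, -1.70 and -2.15, against -3.75, -3.77, -4.47 and -4.27 in WT baseline hearts. Of the 4 baseline arrays, 3 in NOS3-TG and 2 in WT were not well above background, so the fitted difference is not a bound. Loxl3 was 1.36 ± 0.39 log2 units higher in NOS3-TG TAC than in NOS3-TG baseline hearts (adjusted p = 0.0409) and 2.00 ± 0.39 higher in WT TAC than in WT baseline hearts (adjusted p = 0.003, limma). The NOS3-TG call was kept in 7 of 16 fits that left out 1 array, with adjusted p = 0.121 without NOS3-TG TAC replicate 1, and with slide as a random block adjusted p = 0.0529. With normexp background correction the differences were 0.49 in NOS3-TG hearts (adjusted p = 0.258) and 0.99 in WT hearts.

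**Figure D1:**
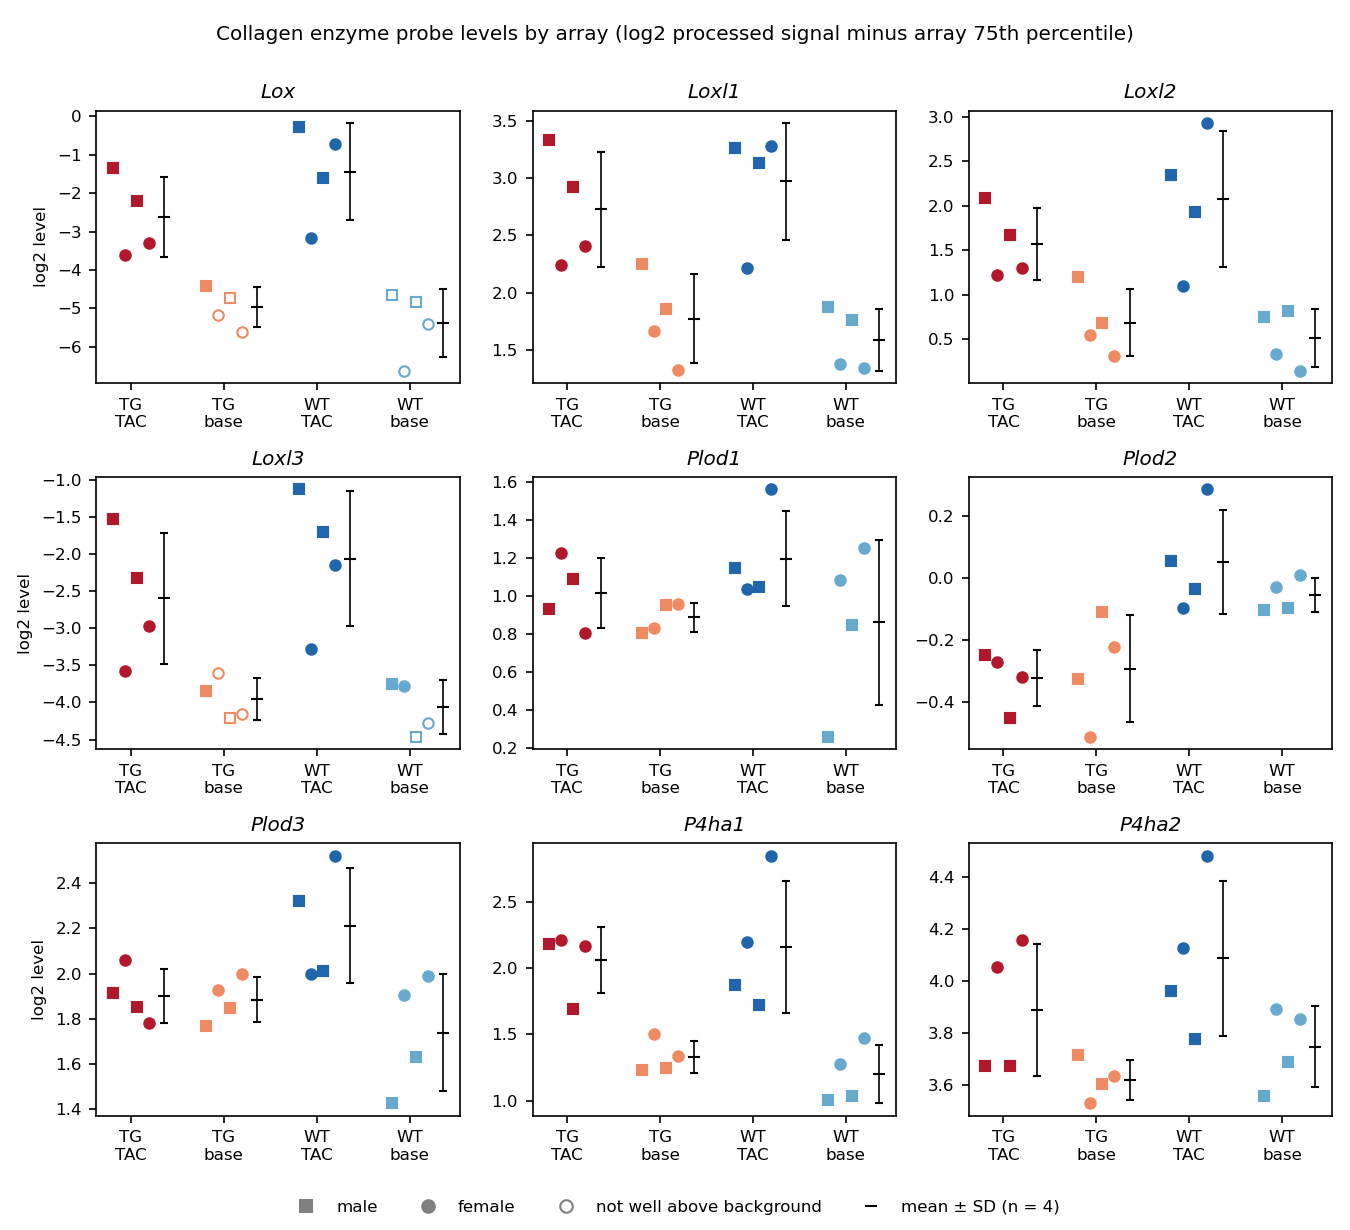
Levels of the 9 tested genes by array (log2 processed signal minus array 75th percentile; squares male, circles female, open symbols not well above background, bars mean ± SD with n = 4). The constricted hearts stand above the baseline hearts of their genotype for Lox, Loxl2, Loxl3 and P4ha1, and WT TAC replicate 4, a female, is the highest WT TAC array for every tested gene but Lox and Loxl3, where replicate 1 is.

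Of the 3 lysyl hydroxylases, 0 were called in NOS3-TG hearts and 1, Plod3, was called in WT hearts. Plod3, which has collagen galactosyl- and glucosyltransferase activity besides hydroxylase activity, had levels of 1.91, 2.06, 1.85 and 1.78 in NOS3-TG TAC hearts, against 1.77, 1.93, 1.85 and 2.00 in NOS3-TG baseline hearts. It read 2.32, 2.00, 2.01 and 2.52 in WT TAC hearts, against 1.42, 1.91, 1.63 and 1.99 in WT baseline hearts. The WT groups stood just apart, at 2.00 against 1.99, and the NOS3-TG groups overlapped. In NOS3-TG hearts Plod3 averaged 1.90 ± 0.12 with constriction and 1.88 ± 0.10 at baseline (SD, n = 4 each), a difference of 0.02 with a 95% interval of -0.25 to 0.28. It averaged 2.21 ± 0.25 in WT TAC hearts and 1.74 ± 0.26 in WT baseline hearts, and the difference was 0.47 ± 0.12 log2 units (adjusted p = 0.0133, limma). Its second probe gave 0.57 ± 0.18 in WT hearts. Fitted to the WT groups alone, Plod3 missed the threshold (adjusted p = 0.0676).

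Plod1, which hydroxylates lysines in the helical part of collagen, differed by 0.13 ± 0.17 log2 units in NOS3-TG hearts (adjusted p = 0.668) and by 0.34 ± 0.17 in WT hearts (adjusted p = 0.158). Plod2, whose product hydroxylates telopeptide lysines, differed by -0.03 ± 0.10 in NOS3-TG hearts (adjusted p = 0.878) and by 0.11 ± 0.10 in WT hearts (adjusted p = 0.463). Plod1 lay between 0.81 and 1.23 in NOS3-TG TAC, 0.81 and 0.96 in NOS3-TG baseline, 1.03 and 1.56 in WT TAC, and 0.26 and 1.25 in WT baseline hearts, where 1 male was lowest. For neither did the groups stand apart by constriction.

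Of the 2 tested prolyl 4-hydroxylase subunits, P4ha1 rose in both genotypes and P4ha2 in WT hearts. P4ha1, the widely expressed catalytic subunit, had levels of 2.18, 2.22, 1.69 and 2.17 in NOS3-TG TAC hearts, against 1.23, 1.50, 1.25 and 1.34 in NOS3-TG baseline hearts. In WT TAC hearts they were 1.87, 2.20, 1.72 and 2.85, against 1.01, 1.28, 1.03 and 1.47 in WT baseline hearts. No constricted heart overlapped a baseline heart of its genotype. The difference was 0.74 ± 0.15 log2 units in NOS3-TG hearts (adjusted p = 0.00976) and 0.96 ± 0.15 in WT hearts (adjusted p = 0.000949, limma). Its second probe gave 1.05 ± 0.17 in NOS3-TG and 1.10 ± 0.17 in WT hearts.

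P4ha2, the second catalytic subunit, had levels of 3.67, 4.05, 3.67 and 4.16 in NOS3-TG TAC hearts and of 3.72, 3.53, 3.60 and 3.64 in NOS3-TG baseline hearts. It had levels of 3.96, 4.13, 3.78 and 4.48 in WT TAC hearts and of 3.56, 3.89, 3.69 and 3.85 in WT baseline hearts, and the groups overlap in both genotypes. In NOS3-TG hearts it differed by 0.27 ± 0.11 log2 units (adjusted p = 0.144, limma). In WT hearts the difference of 0.34 ± 0.11 passed the threshold (adjusted p = 0.0411), and it was kept in 9 of 16 fits that left out 1 array. Without WT TAC replicate 4 it did not pass (0.24, adjusted p = 0.138). With slide as a random block its adjusted p was 0.0535.

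The upstream sequence of P4ha1, P4ha2 and Plod3 is shown because these genes were called in WT hearts and RefSeq promoters for them were given (GRCm38.p6), with Plod1, which was not called, for comparison. Each is the 250 bases before the gene's start, with ACGTG, a form of the hypoxia response element core, in capitals on either strand. Its reverse complement reads CACGT, and a CACGTG would count on both. The core can also read GCGTG, which was neither marked nor counted. P4ha1 lies at chr10:59323046-59323295 (+), P4ha2 at chr11:54100674-54100923 (+), Plod3 at chr5:136986769-136987018 (+) and Plod1 at chr4:147936777-147937026 (-).
P4ha1: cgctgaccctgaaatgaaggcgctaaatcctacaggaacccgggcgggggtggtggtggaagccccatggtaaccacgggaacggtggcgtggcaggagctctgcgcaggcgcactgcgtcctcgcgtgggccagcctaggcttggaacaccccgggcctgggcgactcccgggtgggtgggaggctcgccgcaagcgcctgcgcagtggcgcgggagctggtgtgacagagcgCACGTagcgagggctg
P4ha2: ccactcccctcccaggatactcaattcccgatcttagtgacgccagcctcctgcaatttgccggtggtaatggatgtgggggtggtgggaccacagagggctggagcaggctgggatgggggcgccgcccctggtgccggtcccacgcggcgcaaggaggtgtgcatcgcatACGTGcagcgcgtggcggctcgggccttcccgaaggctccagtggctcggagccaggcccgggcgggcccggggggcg
Plod3: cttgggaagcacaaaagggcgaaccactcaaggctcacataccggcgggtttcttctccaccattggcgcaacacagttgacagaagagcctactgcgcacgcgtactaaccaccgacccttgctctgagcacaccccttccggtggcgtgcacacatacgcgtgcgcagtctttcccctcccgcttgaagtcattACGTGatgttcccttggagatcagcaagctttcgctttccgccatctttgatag
Plod1: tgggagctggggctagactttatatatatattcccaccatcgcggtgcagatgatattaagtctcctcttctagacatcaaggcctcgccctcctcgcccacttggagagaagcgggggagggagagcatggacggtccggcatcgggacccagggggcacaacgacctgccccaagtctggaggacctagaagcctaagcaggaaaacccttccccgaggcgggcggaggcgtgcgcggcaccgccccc
P4ha1, P4ha2 and Plod3 hold 1 match of ACGTG each, 16, 78 and 54 bases before the start, and Plod1 holds no ACGTG. The window of P4ha3, which was not tested and is not shown, holds none either, so 3 of 5 given windows hold ACGTG. Over all 32851 promoter windows of this length, 16.6% hold ACGTG on either strand. GCGTG was not counted in any window, so the genes cannot be set apart by the whole core. A match is a description of these letters.

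**Figure D2:**
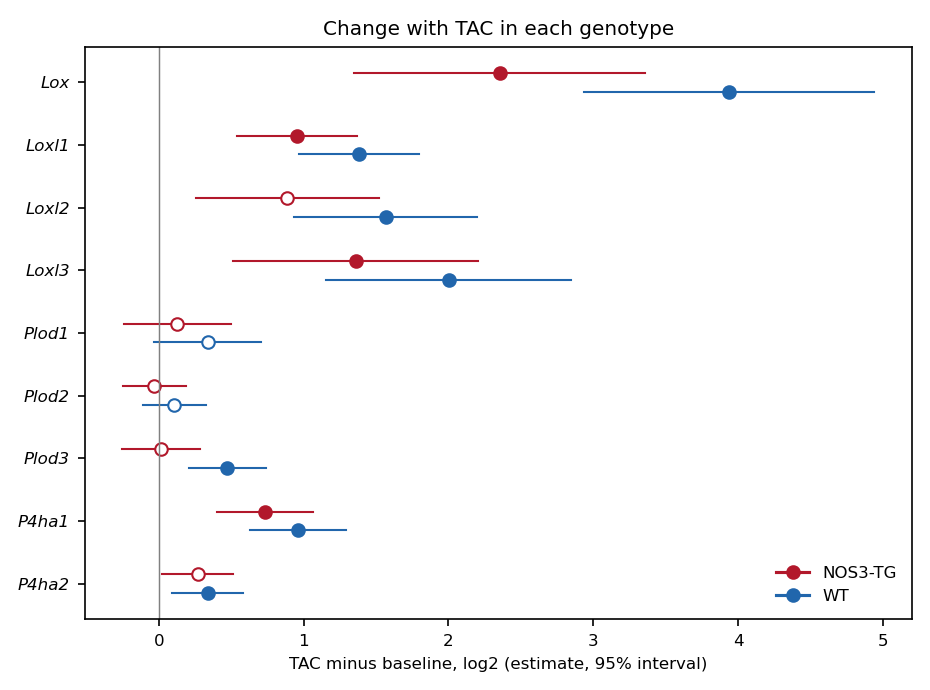
Change with constriction in each genotype (TAC minus baseline, log2, with 95% intervals; filled symbols, adjusted p under 0.05). The intervals of the 4 lysyl oxidases, P4ha1 and P4ha2 lie right of 0 in both genotypes, and the difference between genotypes passed the test for none. The intervals are not adjusted for the number of genes.

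Between genotypes none of the 9 genes passed the test, in constricted hearts, at baseline, or for the difference in constriction response. In all genes 44 (0.281%) were called between NOS3-TG TAC and WT TAC hearts, 65 (0.415%) between NOS3-TG baseline and WT baseline hearts, and 0 for the difference in response, where 1166 had an unadjusted p under 0.05. All 9 estimates were below 0 between NOS3-TG TAC and WT TAC hearts with all arrays, but they rested in part on WT TAC replicate 4: without it P4ha1 turned to 0.09, Loxl1 was at -0.03, Loxl2 at -0.11 and Lox at -0.70. All 9 response differences were negative with all arrays as well (median -0.43, against 0.07 over all genes), but this comparison shares the constricted arrays with the previous one. Among cell markers in the same comparison of NOS3-TG TAC with WT TAC hearts, none was called. The 3 epicardial markers had estimates of -1.73 to -0.89 (median -1.56), and the medians were -0.40 for smooth muscle and pericyte, -0.34 for atrial myocyte, -0.25 for endothelial, -0.04 for fibroblast and 0.18 for macrophage markers. For the response difference no marker was called. Its medians were -1.85 for the 3 atrial myocyte, -0.83 for epicardial, -0.48 for macrophage, -0.09 for fibroblast and -0.07 for endothelial markers. They were 0.04 for smooth muscle and pericyte, 0.07 for cardiomyocyte and 0.18 for skeletal muscle markers. At baseline the 6 macrophage markers had NOS3-TG minus WT estimates of 0.59 to 0.76, with 2 called higher, and no marker of another list was called. The part of all these markers in the enzyme estimates was not tested.

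Lox had the lowest estimates: -1.18 ± 0.46 log2 units between NOS3-TG TAC and WT TAC hearts (adjusted p = 0.314) and -1.59 ± 0.66 for the response difference (95% interval -3.00 to -0.17, adjusted p = 0.663). Plod3 had a response difference of -0.46 ± 0.18 (adjusted p = 0.658, limma). Within slides the Lox difference was -0.76 and -1.60 on the 2 constriction slides. Since 7 of the 8 baseline arrays were not well above background for Lox, its response difference rests in part on signals that are bounds.

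Plod2 had the lowest adjusted p of the tested enzymes in both genotype comparisons, and passed in neither (limma). Its levels were -0.25, -0.27, -0.45 and -0.32 in NOS3-TG TAC hearts, against 0.05, -0.10, -0.03 and 0.29 in WT TAC hearts. At baseline they were -0.32, -0.51, -0.11 and -0.22 in NOS3-TG hearts, against -0.10, -0.03, -0.10 and 0.01 in WT hearts. The differences were -0.38 ± 0.10 log2 units with constriction (95% interval -0.59 to -0.16, adjusted p = 0.141) and -0.24 ± 0.10 at baseline (adjusted p = 0.37, limma), neither past the threshold. At baseline the groups nearly met, with the highest NOS3-TG heart at -0.11 and the lowest WT heart at -0.10. Within slides the difference was -0.24 and -0.51 on the constriction slides, and -0.35 and -0.12 on the baseline slides.

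**Figure D3:**
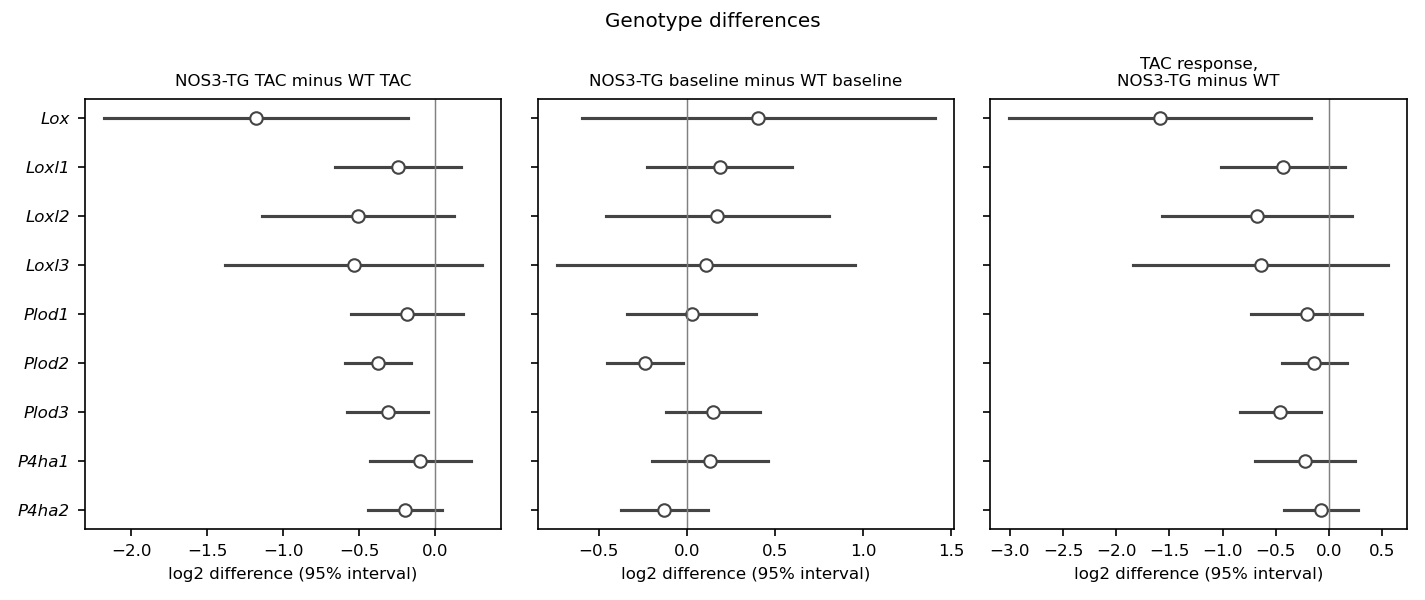
Genotype differences for the 9 genes (log2, 95% intervals), from left: NOS3-TG TAC minus WT TAC, NOS3-TG baseline minus WT baseline, and the response difference. All open symbols missed the threshold, and the estimates in the left and right panels lie left of 0.

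Males and females were compared after the values had been seen, and none of the 9 genes passed the test over all genes, of which 208 (1.33%) did. Lox had an estimate of 1.19 ± 0.33 log2 units, male minus female (adjusted p = 0.0948), and Loxl1 one of 0.57 ± 0.14 (adjusted p = 0.0609, limma). The Lox estimate rests in part on baseline signals not well above background (7 of 8 arrays), and it was 0.45 with normexp background correction (adjusted p = 0.463). Within groups the male minus female differences ran from -0.15 to 1.68 for the lysyl oxidases. They ran from -0.61 to 0.15 for the lysyl hydroxylases and from -0.73 to 0.08 for the prolyl hydroxylases. All genes were read on the same mice, and Lox and Loxl1 had an r of 0.97 over the arrays, so these values are not independent. Without WT TAC replicate 4, Lox (1.43, adjusted p = 0.0164), Loxl1 (0.68, adjusted p = 0.00668) and Loxl2 (0.65, adjusted p = 0.0129) were called. Within the 4 slides the Lox difference was 2.57 and 0.10 on the constriction slides, the second of which holds WT TAC replicate 4. The 3 atrial myocyte markers had male minus female estimates of 2.42 to 3.93 (median 3.57, 0 of 3 called), and the 10 fibrillar collagen chains had a median of 0.44 with 1 called. Their part in the sex estimates was not tested.

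The 4 lysyl oxidases had positive constriction estimates in both sexes of both genotypes. Loxl1 differed by 1.08 in NOS3-TG males and 0.83 in NOS3-TG females, and by 1.38 in WT males and 1.38 in WT females, as means of 2 mice. Loxl2 differed by 0.94 in NOS3-TG males and 0.83 in NOS3-TG females, and by 1.36 in WT males and 1.78 in WT females. For Lox and Loxl3, whose baseline signals were mostly not well above background, such differences are not sizes. The test of the sex difference in response called 0 of 9 genes and 0 of all genes, where 1777 had an unadjusted p under 0.05, and Loxl3 had an estimate of 1.44 ± 0.44 log2 units (adjusted p = 0.299, limma). The 3 atrial myocyte markers had a median of 6.52 in the same test, with 0 called, and their part was not tested.

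**Figure D4:**
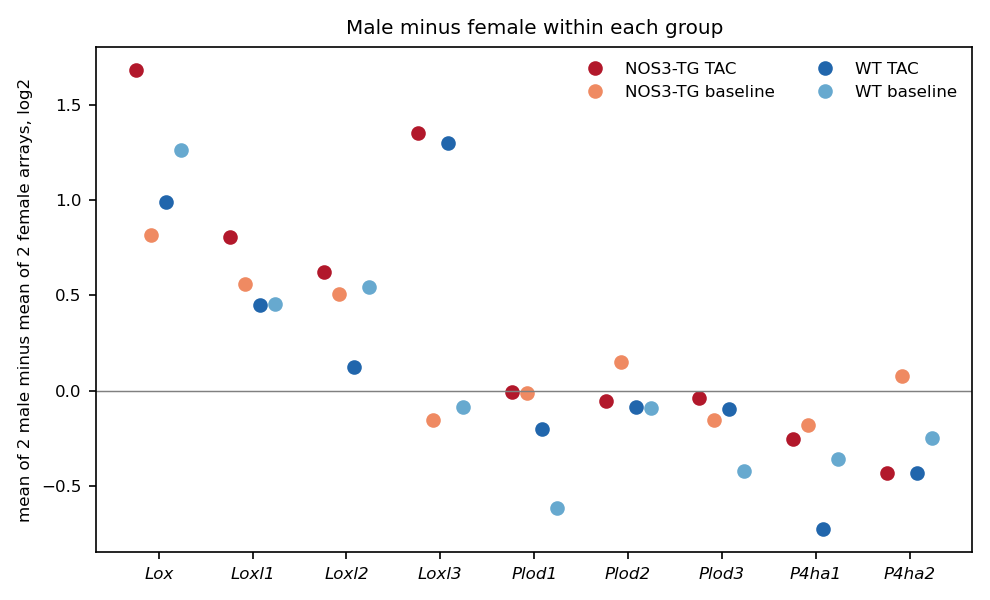
Male minus female within each group (log2, mean of 2 males minus mean of 2 females; 1 point per group). The Lox, Loxl1 and Loxl2 points lie above 0 in all 4 groups, and the P4ha1 points below 0.

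The enzymes' collagen substrates and regulators were described from lists chosen with results of these data known. Of 10 tested fibrillar collagen chains, 2 rose in NOS3-TG TAC hearts and 7 in WT TAC hearts, and none fell. These counts, and those of the lists that follow, stand against 11.8% of all genes called in NOS3-TG and 28.4% in WT hearts. The 2 chains called in both genotypes were Col2a1, by 2.13 in NOS3-TG and 2.50 in WT hearts, and Col5a2, by 1.02 in NOS3-TG and 1.75 in WT hearts. Col1a1 differed by 0.79 (adjusted p = 0.0612) in NOS3-TG and by 1.32 (adjusted p = 0.00274) in WT hearts, and Col3a1 by 0.66 (adjusted p = 0.0782) in NOS3-TG and by 1.10 (adjusted p = 0.00386) in WT hearts. Of 5 tested procollagen processing genes, 1 rose in NOS3-TG hearts and 3 rose and 1 fell in WT hearts, and Pcolce2, an enhancer of C-propeptide removal, rose by 0.51 in NOS3-TG and by 0.68 in WT hearts. In WT hearts Adamts2, which removes N-propeptides, rose by 1.06 and Pcolce by 0.59, and Adamts3 fell by 0.64.

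Of 14 collagen folding genes, 2 rose and 2 fell in NOS3-TG hearts and 3 rose and 3 fell in WT hearts: P3h2, a prolyl 3-hydroxylase, rose by 0.97 in NOS3-TG and by 0.90 in WT hearts. P3h4, a cofactor of lysyl hydroxylation, fell by 1.11 log2 units in NOS3-TG and fell by 1.19 in WT hearts. Fkbp10, a collagen chaperone, fell by 0.67 in NOS3-TG and fell by 0.75 in WT hearts. Serpinh1, the collagen chaperone HSP47, rose by 0.37 in NOS3-TG hearts. It was also higher in WT TAC hearts (mean level 6.10) than in WT baseline hearts (5.67). P4hb, the beta subunit of prolyl 4-hydroxylase, rose by 0.55 in WT hearts. In NOS3-TG hearts the P4hb difference of 0.28 was not called (adjusted p = 0.243, limma). Of 9 genes of TGF-beta ligands and targets, 3 rose in NOS3-TG and 6 in WT hearts, among them Tgfb2 by 1.27 in NOS3-TG and 1.37 in WT hearts, and Ccn2 by 1.56 in NOS3-TG and 2.12 in WT hearts. Tgfb3 rose by 0.58 in NOS3-TG hearts, and was also higher in WT TAC hearts (mean level 3.90) than in WT baseline hearts (3.48). Smad7 rose by 0.70 in WT hearts, and its difference of 0.38 in NOS3-TG hearts missed the threshold (adjusted p = 0.0622, limma). Of 15 hypoxia-inducible genes, 0 were called in NOS3-TG hearts, and 2 rose and 1 fell in WT hearts, where 3 of 15 is below the 28.4% called over all genes. Those were Bnip3 and Slc2a1, which rose by 0.59 and 0.43, and Egln1, an oxygen-sensing prolyl hydroxylase, which fell by 0.41. Of 10 partners of the lysyl oxidases, 1 rose in NOS3-TG hearts and 3 in WT hearts, with periostin (Postn, also among the fibroblast markers) higher by 1.67 in NOS3-TG and 2.46 in WT hearts. Elastin (Eln) rose by 1.55 and fibronectin (Fn1) by 1.00 in WT hearts. Of 6 genes of copper, ascorbate and oxoglutarate supply, 1 fell in NOS3-TG hearts, and 1 rose and 1 fell in WT hearts, near the share over all genes. Idh1, a cytosolic source of oxoglutarate, fell by 0.52 in NOS3-TG and fell by 0.72 in WT hearts, and Atp7a, a copper transporter, rose by 0.31 in WT hearts.

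**Figure D5:**
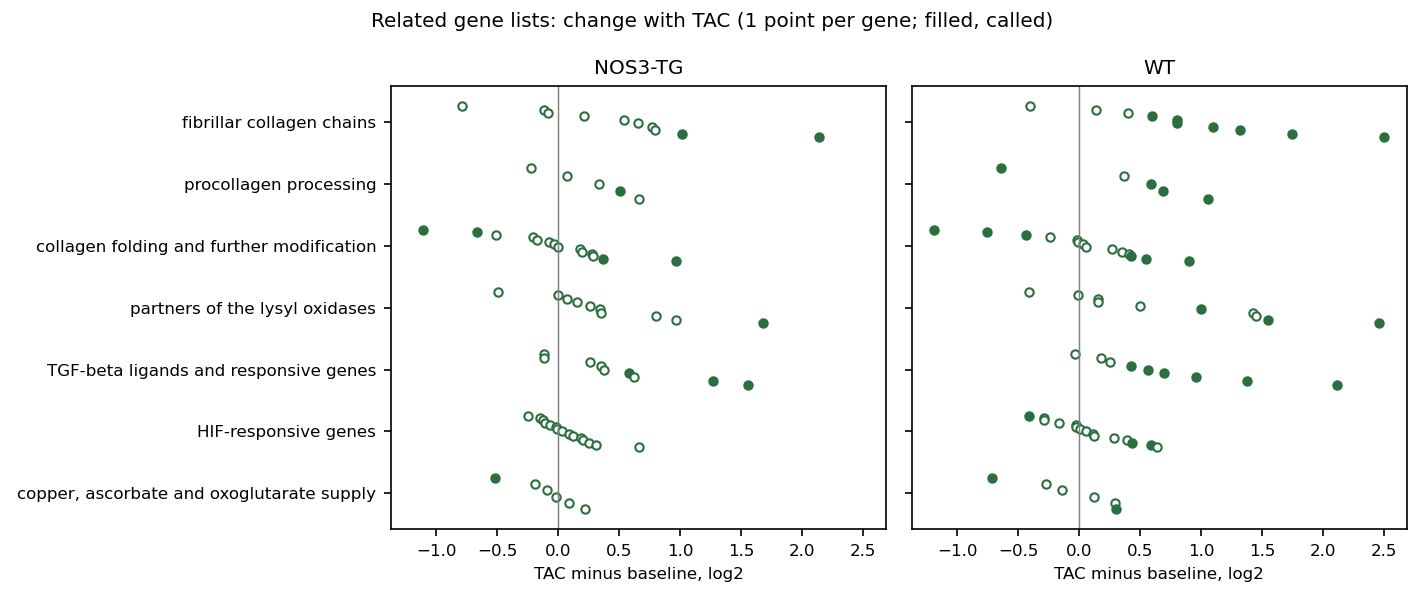
Change with constriction for genes of 7 lists (log2, 1 point per gene, filled where called; NOS3-TG left, WT right). Fibrillar collagen points lie mostly right of 0, and hypoxia-inducible genes sit around it.

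Cell markers moved with constriction too. Of 12 fibroblast markers, 4 rose and 1 fell in each genotype, with summed levels of 356 to 419 in NOS3-TG TAC against 340 to 374 in NOS3-TG baseline, and 365 to 415 in WT TAC against 367 to 399 in WT baseline hearts, in multiples of the 75th percentile. Of 6 macrophage markers, 2 rose in NOS3-TG and 4 in WT hearts, with sums of 16.2 to 22.9 in NOS3-TG TAC against 17.0 to 20.0 in NOS3-TG baseline, and 12.6 to 18.5 in WT TAC against 11.4 to 12.5 in WT baseline hearts. Of 6 endothelial markers, 1 rose in NOS3-TG and 4 in WT hearts, and their sums did not overlap, at 32.1 to 36.6 in NOS3-TG TAC against 22.8 to 31.0 in NOS3-TG baseline, and 35.3 to 40.0 in WT TAC against 28.1 to 30.3 in WT baseline hearts. The fibroblast markers that rose in both genotypes were Meox1, Mfap4, Pi16 and Postn, and Scara5 fell, while Dcn, Pdgfra and Tcf21 were not called in either. Of 7 smooth muscle and pericyte markers, Acta2 rose and Lmod1 and Myh11 fell in each genotype, with medians of -0.77 in NOS3-TG and -0.94 in WT hearts. Of 9 cardiomyocyte markers, 0 were called in NOS3-TG hearts and 3 fell in WT hearts (Ryr2, Ckm and Pln). Of 3 epicardial markers, 0 were called in NOS3-TG hearts and Wt1 rose by 1.15 in WT hearts. The 3 atrial myocyte markers had medians of -2.70 in NOS3-TG and -0.99 in WT hearts, with 0 called in either. Of 3 tested skeletal muscle markers, Tnnt3 rose in both genotypes and Ckm fell in WT hearts. Their part in the enzyme changes was not tested.

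Likeness was measured over the 16 arrays as Pearson r between levels, among the 15508 genes measured on every array. The 3 genes most like Lox were Col4a1, a basement membrane collagen chain (0.98, and 0.84 after group and sex means were removed), Loxl1 and Rflnb. Those most like Loxl1 were Lox, Rhoc and Col4a1, and those most like Loxl2 were Sparc, a collagen-binding matricellular protein (0.99), Col5a2 and Col4a1. P4ha1 was most like Hspb1, Smurf2 and Axl, with Hspb1, a small heat shock protein, at 0.95. Plod2 was most like Hjurp, Meox2 and Diaph1 (0.90 for Hjurp), and P4ha2 was most like Notch4, Ptk2 and Egln3 (0.90 for Notch4). Plod1 was most like Sf3b3 (0.92). After group and sex means were removed, r was 0.66 for P4ha1 with Hspb1, 0.74 for P4ha2 with Notch4 and 0.77 for Plod2 with Hjurp. It was 0.82 for Loxl1 with Lox, 0.90 for Plod1 with Sf3b3 and 0.96 for Loxl2 with Sparc. Among the members, Loxl1 and Loxl2 had an r of 0.97 and Plod1 and Plod3 one of 0.87, and Loxl1 and Plod2 one of 0.18. These values are descriptions: the points share slides, and differences between constricted and baseline hearts enter them.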

How the data were processed

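Per the labels' protocols, RNA from each ventricle was labelled with Cy3 and hybridised to a 1-colour Agilent array. Per the submitters' processing notes the scans were read with Agilent Feature Extraction 9.5.1.1. The deposited files hold processed signal intensity per probe, with flags for background and outliers. The authors' deposited table of log2 values, normalized in a way not given in the sources used here, holds 11 of the probes, none of them for Lox, and served as an alternative.

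From the intensity, log2 values were taken minus each array's 75th percentile. Controls and spots flagged as outliers were dropped, spots of 1 probe were averaged, and probes well above background on at least 4 arrays were kept (23066), with the highest-mean probe standing for a gene (15667). limma 3.58.1 in R 4.3.3 was fitted over the 16 arrays with 4 group means and a sex term, two-sided, with Benjamini-Hochberg adjustment over all genes, and tested on simulated data. The number of arrays limits the precision. All 10 genes were described. Beside each pathway list's counts, up to 4 called genes per comparison were named by size of the log2 change, and likeness was the highest Pearson r (for Loxl3 and Plod3 not reported here). The genes and lists were chosen with earlier results of these data known. Replicate numbers were given in accession order. The p-values set a difference against the spread between these mice as limma estimates it, and they cannot separate constriction from slide.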

Additional observations from a re-analysis of the deposited data

Results flagged for a closer look

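In 47 sets of 4 arrays, 1 array lay far from the other 3 in 3 sets, and chance alone marks about 1 in 20. Loxl1 in WT TAC replicate 2 was at 2.21, below the nearest array at 3.13. P4ha1 in NOS3-TG TAC replicate 3 was at 1.69, below the nearest at 2.17. The second Plod3 probe in NOS3-TG TAC replicate 2 was at -0.58, above the nearest at -0.89.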

How the results depend on the processing

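Of the 9 genes, 4 were called with constriction in NOS3-TG hearts, and 3 to 5 when 1 array was left out, but 2 with normexp background correction, where the cause was not tested. The count was 0 without the 3 arrays farthest in share above background, an alternative chosen after seeing the data, where all 4 estimates were larger and 2 NOS3-TG TAC arrays were left. In WT hearts 7 were called, between 5 and 7 under the other settings and between 6 and 7 when 1 array was left out. Both genotype comparisons and the response difference called 0 under every alternative run. Male minus female called 0, but 1 with the filter on all 16 arrays, 3 with array weights, 1 with an intensity trend and 0 to 3 when 1 array was left out. No called result changed sign. Constriction could not be fitted with slide as a fixed block, since each slide holds 1 condition. No paired analysis was possible because the labels give no shared replicate numbers, though each slide holds both genotypes, and with slide as a fixed block both genotype comparisons called 0. Dim probes limit Lox and Loxl3 at baseline, and both passed the filter through the constricted arrays.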
